A study of Mus musculus with 30 samples.

Results

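The gene expression response of the mouse jejunum 1 h after a single injection of fibroblast growth factor 7 (Fgf7, also called keratinocyte growth factor) was read from 6 arrays, 3 labelled Fgf7 at 1 h and 3 labelled phosphate-buffered saline (PBS) at 1 h, out of 30 arrays in the series. The members of the comparison were taken from the sample titles, and every gene with a probe above the level of unlit probes was tested, which gave 13201 genes. All mice were C57BL/6 males of 11 to 12 weeks that had not been fasted. Fgf7 mice received the human recombinant protein at 1 mg/kg and the controls PBS, by intraperitoneal injection for Fgf7, and RNA came from scrapings of the mucosa over a 2 cm length of jejunum. The other 24 arrays were of Fgf7 and PBS at 5 h and 20 h and of exendin-4 (Ex-4, 10 nmol/kg), which activates the glucagon-like peptide 1 receptor, at all 3 times.

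Fgf7 is made by mesenchymal cells and acts on neighbouring epithelium through the IIIb splice form of the receptor Fgfr2. The bound receptor signals through adaptor proteins to Ras and the kinases Erk1 and Erk2. These phosphorylate transcription factors that sit with serum response factor (the product of Srf) on a DNA element called the CArG box, and immediate-early genes such as Egr1, Fos and Jun are then transcribed without new protein synthesis. Sprouty proteins and the phosphatase Dusp6 are known to be induced later in the same cascade and to dampen it. In the intestine the agent is known as a growth factor for the epithelium.

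The labelled tissue was checked against its markers. Of 23 enterocyte brush border genes with a probe, 22 were tested. These lay above the dim level, 7.18 on the deposited log2 scale, in all 6 arrays. The dim level marks the upper edge of the probes without signal. Only genes with a probe above it in at least 3 of the 30 arrays were tested, so this count was partly set by the filter. Fabp2 had a probe but did not meet the filter. The median level of the tested brush border genes over the 6 arrays was 13.64. The arrays were alike over all tested genes, with r between 0.987 and 0.9951 across genes for pairs of arrays, but 1 stood apart. PBS replicate 3 carried more smooth muscle RNA than the others. The mean of 16 smooth muscle markers, each centred on its mean over 30 arrays, was 1.82 in PBS replicate 3 against -0.37 and 0.11 in PBS replicates 1 and 2 and -0.49, -0.24 and -0.07 in the Fgf7 arrays. Results that PBS replicate 3 touches are therefore given with and without it. In bulk tissue, fewer cells of a type and less RNA per cell cannot be told apart. The labels number the replicates without naming animals, so p-values reflect only the variation among these samples, which may be technical.

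Immediate-early control regions show what the known route from receptor to gene looks like in sequence. The windows below cover 250 bases before to 50 bases after a transcription start, from RefSeq (GRCm38.p6), and a window of Egr1 is not used here. The 3 were chosen for Jun, the partner of Fos, which had the lowest p among the immediate-early transcription factors after Egr1, and for Srf and Zfp36, whose windows hold a CArG box. Capitals mark a CArG box in Srf and Zfp36 and the 8-letter motif TGANNTCA, the outline of a binding element for Jun dimers known from the Jun promoter, in Jun. Jun lies at chr4:95052173-95052472, Srf at chr17:46556113-46556412 and Zfp36 at chr7:28379179-28379478, each on the minus strand and written 5′ to 3′.
Jun: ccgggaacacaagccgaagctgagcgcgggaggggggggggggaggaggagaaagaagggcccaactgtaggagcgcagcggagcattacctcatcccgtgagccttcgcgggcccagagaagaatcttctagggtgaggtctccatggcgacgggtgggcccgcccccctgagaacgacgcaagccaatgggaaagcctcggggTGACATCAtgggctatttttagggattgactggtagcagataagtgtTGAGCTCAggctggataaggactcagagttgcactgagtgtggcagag
Srf: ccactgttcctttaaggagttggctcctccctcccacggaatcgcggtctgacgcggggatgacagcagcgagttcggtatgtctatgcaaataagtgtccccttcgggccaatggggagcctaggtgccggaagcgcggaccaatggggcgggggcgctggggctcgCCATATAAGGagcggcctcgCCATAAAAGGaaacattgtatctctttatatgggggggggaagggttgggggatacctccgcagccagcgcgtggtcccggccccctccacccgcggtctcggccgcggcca
Zfp36: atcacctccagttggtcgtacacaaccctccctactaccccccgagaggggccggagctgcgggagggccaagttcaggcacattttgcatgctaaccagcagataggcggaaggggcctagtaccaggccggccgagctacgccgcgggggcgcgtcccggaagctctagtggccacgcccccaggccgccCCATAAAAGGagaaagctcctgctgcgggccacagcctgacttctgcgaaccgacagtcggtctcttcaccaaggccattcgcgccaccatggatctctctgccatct

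Over 32851 windows of this length, both strands searched, 1.63% held at least 1 CArG box, 0.0183% held at least 2 and 14.1% held TGANNTCA. Srf was among the windows with 2 boxes. Of the 59 immediate-early genes tested, 45 had a window, with 63 windows among them. A CArG box was found for 3 of these genes (Srf, Zfp36 and Egr2) and TGANNTCA for 9. A gene counted if any of its windows matched, so these counts are not on the scale of the shares of windows. Elements outside the windows and inexact matches were not searched. None of the 3 genes with a CArG box passed at 1 h. The log2 difference of Srf was -0.24 (-0.11 without PBS replicate 3), that of Zfp36, a destabiliser of mRNAs, was 0.15, and that of Egr2 was 0.10. A match is a string of letters in a window, not a bound site.

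Egr1, which encodes a zinc finger transcription factor of the immediate-early class, rose 1 h after Fgf7. Its log2 value was 11.02, 10.98 and 11.49 in the Fgf7 arrays and 9.22, 9.04 and 9.27 in the PBS arrays. Every Fgf7 array lay above every PBS array, and the SD was 0.29 within the Fgf7 group and 0.12 within the PBS group. The log2 difference was 1.99 ± 0.24 (SE, n = 3 per group; 95% interval 1.5 to 2.47), a 3.96-fold rise, with an adjusted p of 0.000103 in limma's test. It was the largest difference of any tested gene and the smallest p. Without PBS replicate 3 the difference was 2.03 (adjusted p = 0.000928), and over the 6 fits without 1 array it stayed between 1.82 and 2.08 with adjusted p-values up to 0.00328. After subtraction of background signal it was 2.27. The gene was represented by a single probe.

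Egr1 was also measured in the 24 other arrays, which show how far the 1 h value stood from them. Ex-4 at 1 h gave 9.98, 9.53 and 10.36, above every PBS array and below every Fgf7 array of that time. At 5 h the Fgf7 arrays gave 9.54, 9.62, 9.66 and 9.34 and the PBS arrays 9.06, 9.24, 9.45 and 9.51. At 20 h they gave 9.67, 9.40 and 9.44 against 9.47, 9.46 and 9.44. The highest value outside the Fgf7 group at 1 h was 10.66, in an Ex-4 array at 5 h, so the 3 Fgf7 arrays at 1 h were the highest of all 30. The log2 difference from PBS was 0.23 ± 0.20 at 5 h (adjusted p = 0.949) and 0.05 ± 0.24 at 20 h (adjusted p = 0.999).

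**Figure D1:**
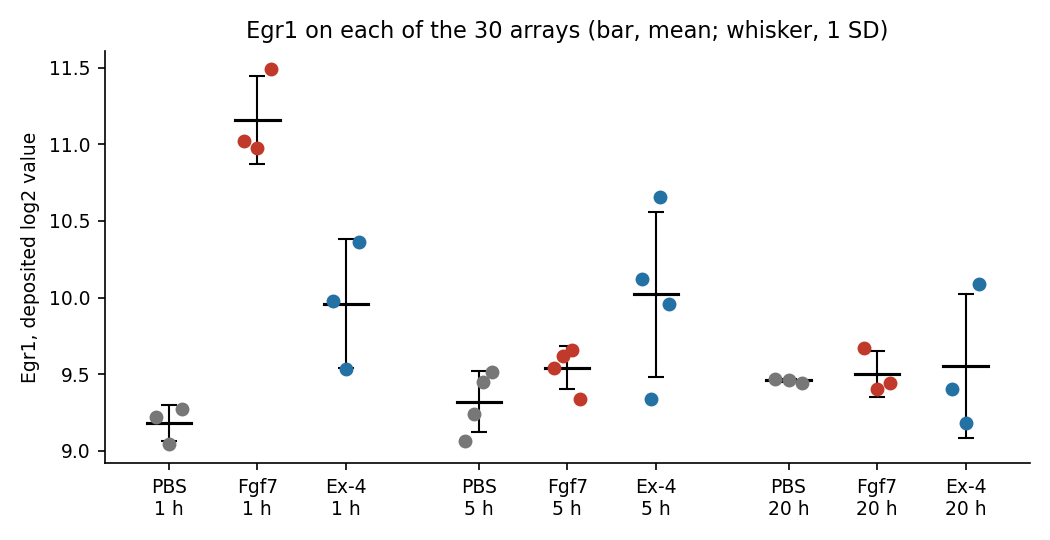
Deposited log2 value of Egr1 on each of the 30 arrays by agent and time, with the mean (bar) and SD (whisker) of each group. The 3 Fgf7 arrays at 1 h lie between 10.98 and 11.49, above every other array, and the Fgf7 arrays at 5 h and 20 h lie at 9.34 to 9.67.

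Whether the rise was larger at 1 h than later was tested as the difference between the Fgf7 effects. It was 1.94 ± 0.33 between 1 h and 20 h (adjusted p = 0.0189) and 1.76 ± 0.31 between 1 h and 5 h, which did not pass (adjusted p = 0.0901). With only the groups of the comparison in the fit, the 5 h contrast had an adjusted p of 0.00172. The 20 h contrast lost its call without Fgf7 replicate 3 (adjusted p = 0.129), without PBS replicate 1 (0.0567) or without PBS replicate 2 (0.101). It was also lost without the 4 arrays richest in smooth muscle transcripts (0.136), with trended and robust variances (0.0523) and after background subtraction (0.0522). Over all genes, 3 of 13201 (0.0227%) differed between the 1 h and 20 h effects beside 536 with an unadjusted p under 0.05 (4.06%). Between the 1 h and 5 h effects 0 differed (0.0%) in limma's test, 957 had an unadjusted p under 0.05 (7.25%), and other settings gave 0 to 3. The same-numbered Fgf7 and PBS arrays deviated together at 1 h and at 20 h, where some arrays of unlike number did too. With the replicate number as a block 6 genes differed between the 1 h and 20 h effects. The genes added by the block were Pate4 and the serpins Serpina1b and Serpina1d, close paralogs whose probes may not tell them apart.

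Across all genes the change was narrow. In the comparison of Fgf7 with PBS at 1 h, 1 of 13201 genes passed (0.00758%), and the next smallest adjusted p was 0.408. An unadjusted p under 0.05 was reached by 1000 genes (7.58%), 483 higher (3.66%) and 517 lower (3.92%), and by 902 (6.83%) without PBS replicate 3. Of these, 604 genes met the threshold in both fits in the same direction. The 3 Fgf7 and 3 PBS arrays did not overlap for 1965 genes (14.9%). The median log2 difference over all genes was 0.00. With the replicate number as a block within each time, 2 genes passed, Egr1 and Neat1, the noncoding RNA that builds nuclear paraspeckles. Neat1 read 12.28, 12.05 and 12.57 after Fgf7 and 11.74, 11.45 and 11.99 after PBS, a log2 difference of 0.58 ± 0.22 whose adjusted p was 0.0148 with that block and 0.635 without it. The Fgf7 value was the higher of each same-numbered pair. Neat1 was named after its values had been seen.

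Other members of the Egr family and their corepressors did not pass. Egr2 read 7.24, 7.37 and 7.11 after Fgf7 and 7.08, 7.16 and 7.16 after PBS. All 3 PBS arrays lay under the dim level, so a change of Egr2 below that level would not have been detectable. Egr3 read 7.20 to 7.27 after Fgf7 and 7.19 to 7.30 after PBS. Its second probe gave a log2 difference of -0.26, against -0.00 for the probe used, so the probes disagreed. Nab2, a corepressor that binds Egr1 and is itself known as a target of Egr proteins, read 7.49, 7.50 and 7.40 after Fgf7 and 7.74, 7.68 and 7.61 after PBS. These arrays did not overlap, with Nab2 lower after Fgf7 by a log2 difference of -0.22 ± 0.08 (unadjusted p = 0.0142, adjusted p = 0.635). Of the 5 genes of this family tested, 1 passed.

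The Fos and Jun genes encode the subunits of the transcription factor AP-1. Fos read 12.52, 12.30 and 12.43 after Fgf7 and 11.95, 11.91 and 12.37 after PBS. PBS replicate 3 was the only PBS array within the Fgf7 range. The log2 difference was 0.34 ± 0.17 (adjusted p = 0.655; 95% interval -0.00 to 0.69), and 0.49 without that array (unadjusted p = 0.012, adjusted p = 0.66). Jun read 8.91, 8.75 and 8.60 after Fgf7 and 8.46, 8.28 and 8.53 after PBS, without overlap. Its log2 difference was 0.33 ± 0.11 (unadjusted p = 0.00813, adjusted p = 0.612), and it was 0.38 without PBS replicate 3. The PBS mean of Jun was 8.42 at 1 h, 8.67 at 5 h and 8.64 at 20 h. At 1 h the mean was 8.75 after Fgf7 and 8.66 after Ex-4. Junb showed no separation, with 10.55, 10.50 and 10.23 against 10.71, 10.37 and 10.22 and a 95% interval of the log2 difference from -0.29 to 0.29. The log2 difference of Fosb was 0.19, that of Fosl2 0.10 and that of Jund 0.12.

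Among the other immediate-early transcription factors, Atf3, a stress-inducible member of the ATF family, read 7.86, 7.76 and 7.87 after Fgf7 and 7.43, 7.45 and 7.71 after PBS (log2 difference 0.30 ± 0.14, unadjusted p = 0.044). Nr4a3, an orphan nuclear receptor, read 7.46, 7.08 and 7.28 against 7.13, 6.98 and 7.07. No PBS array was above the dim level, nor was Fgf7 replicate 2. The Fgf7 mean was 1.06-fold the dim level, a value given without an error. The 95% interval of the log2 difference ran from 0.03 to 0.39 (unadjusted p = 0.026). Klf2, a Krüppel-like factor known from lymphocytes and endothelium, went the other way, with 7.22, 7.18 and 7.33 after Fgf7 and 7.63, 7.63 and 7.41 after PBS (log2 difference -0.31 ± 0.12, unadjusted p = 0.0184). None of these 3 passed. The PBS mean at 1 h, 5 h and 20 h was 7.53, 7.77 and 7.90 for Atf3, beside 7.83 after Fgf7 at 1 h. For Klf2 it was 7.56, 7.23 and 7.09, beside 7.24, and for Nr4a3 7.06, 7.16 and 7.10, beside 7.27. The part of the PBS arrays at 1 h in these differences was not tested. Myc, a driver of growth, lay around the dim level in all 6 arrays, between 7.09 and 7.29. Of the 28 immediate-early transcription factors tested, 1 passed, 4 were higher and 1 lower at an unadjusted p under 0.05 (3.66% and 3.92% of all genes), and 18 lay above 0. Their median log2 difference was 0.09 (0.10 without PBS replicate 3), beside 0.00 over all genes, of which 50.4% lay above 0. Of the 33 in the list, 31 had a probe.

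Immediate-early genes that encode other proteins did not pass. Plk3, a polo-like kinase induced by mitogens and stress, read 8.97, 8.52 and 8.72 after Fgf7 and 7.97, 8.18 and 8.53 after PBS. The groups overlapped only through PBS replicate 3, which lay just above the lowest Fgf7 array. The log2 difference was 0.51 ± 0.16 (unadjusted p = 0.00355, adjusted p = 0.536) and 0.66 without PBS replicate 3. After Ex-4 at 1 h Plk3 read 8.63, 8.61 and 8.80, within the range of the Fgf7 arrays. Trib1, a pseudokinase that binds ubiquitin ligases, read 7.62, 7.48 and 7.51 against 7.46, 7.28 and 7.31 (log2 difference 0.18 ± 0.08, unadjusted p = 0.034). Ier2 lay under the dim level in 5 of 6 arrays. Ier3, a regulator of cell survival, showed no separation, at 9.02, 8.88 and 9.06 against 9.01, 8.88 and 9.15. Of the 31 genes of this list tested, 0 passed, 2 were higher and 0 lower at an unadjusted p under 0.05 (Plk3 and Trib1; 3.66% and 3.92% of all genes), 23 lay above 0, and the median was 0.05.

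Feedback regulators of Erk signalling showed little. Dusp6, the Erk phosphatase, read 12.02, 11.42 and 11.84 after Fgf7 and 11.60, 11.48 and 11.89 after PBS. The lowest Fgf7 array was below all PBS arrays, and the 95% interval of the log2 difference ran from -0.27 to 0.48, which leaves room for a rise of up to 1.39-fold. Spry4, a sprouty inhibitor of receptor signalling, read 7.27, 7.26 and 7.34 against 7.10, 7.22 and 7.20, without overlap (log2 difference 0.11 ± 0.07, unadjusted p = 0.141). Only Fgf7 replicate 3 put Spry2 at the dim level, and a change of that gene could not be judged. Il17rd, also called Sef, an inhibitor of Fgf receptor signalling, read 7.71, 7.61 and 7.88 against 7.59, 7.48 and 7.50 (log2 difference 0.21 ± 0.10, unadjusted p = 0.0477). After Ex-4 at 1 h it read 7.70, 7.70 and 7.76, within the Fgf7 range. Dusp2, a phosphatase of the nucleus best known from lymphocytes, was lower, at 7.27, 7.24 and 7.16 against 7.55, 7.38 and 7.31 (log2 difference -0.19 ± 0.07, unadjusted p = 0.0165). The PBS mean of Dusp2 was 7.41 at 1 h and 7.13 at both 5 h and 20 h, beside 7.22 after Fgf7 at 1 h. Of the 26 genes tested 0 passed, 16 lay above 0 and the median was 0.02 (0.06 without PBS replicate 3).

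**Figure D2:**
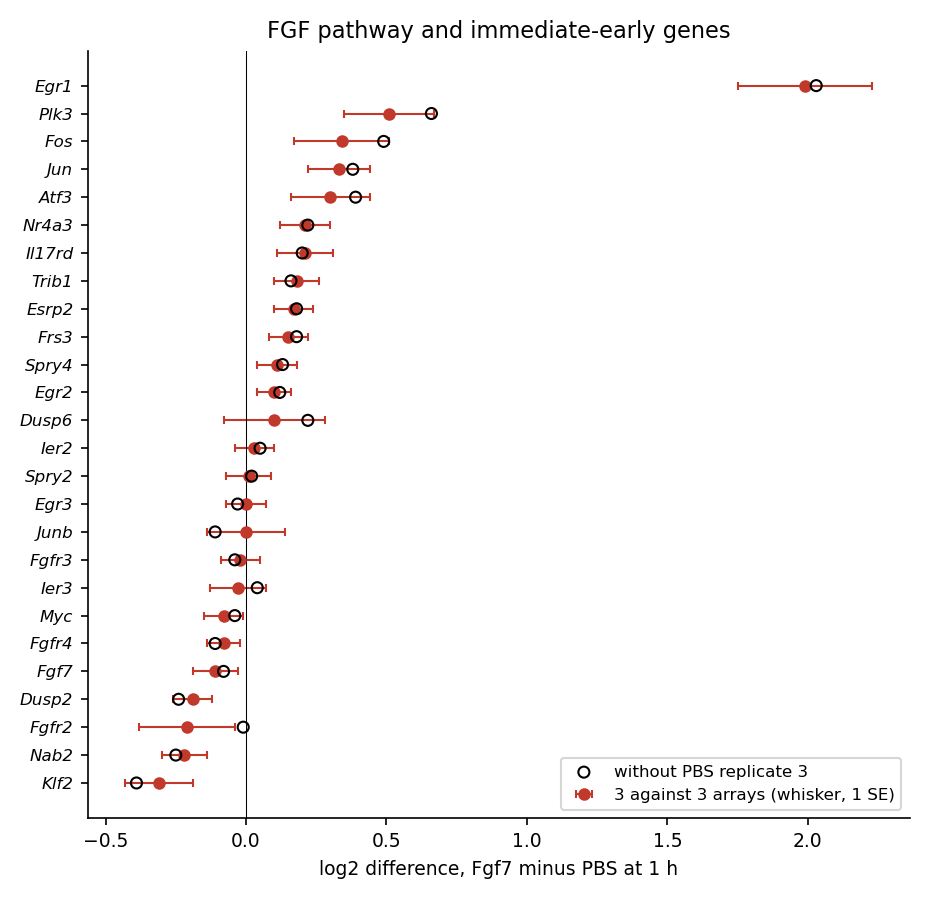
Log2 difference between Fgf7 and PBS at 1 h for named genes of the Fgf pathway, the immediate-early class and Erk feedback, with all 6 arrays (filled points; whiskers, 1 SE) and without PBS replicate 3 (open circles). Egr1 stands alone at 1.99, and the next, Plk3, is at 0.51.

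Receptors, ligands and adaptors of the Fgf family gave small differences. Fgfr2, the gene of the Fgf7 receptor, read 9.57, 9.57 and 9.89 after Fgf7 and 9.52, 9.86 and 10.28 after PBS. Its highest value was in PBS replicate 3, and the log2 difference of -0.21 ± 0.17 became -0.01 without that array. Which splice form the probe reads was not analysed here. Fgfr3 read 7.34 to 7.37 against 7.29 to 7.50, Fgfr4 lay under the dim level in 5 of 6 arrays, and Fgfr1 had no probe that passed the filter. The transcript of mouse Fgf7 itself, which the injected protein does not contribute to, read 7.16, 7.34 and 7.16 against 7.26, 7.33 and 7.40. Esrp2, a splicing factor that favours the epithelial IIIb form of Fgfr2, read 9.33, 9.18 and 9.26 against 9.06, 9.09 and 9.12, without overlap (log2 difference 0.17 ± 0.07, unadjusted p = 0.0298). Frs3, an adaptor of Fgf receptors, read 7.50, 7.32 and 7.53 against 7.29, 7.26 and 7.34 (0.15 ± 0.07, unadjusted p = 0.0462). Of 20 genes tested 0 passed. These last 2, both higher, were the members with an unadjusted p under 0.05 (3.66% of all genes higher and 3.92% lower). The median was -0.02. Of the 10 ligands and receptors of the related ErbB family tested, 0 passed, and the highest log2 difference, 0.32 ± 0.19, was that of the ligand gene Hbegf (adjusted p = 0.688).

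Besides Egr1, no gene passed, and the genes with the largest differences are given as values. They were chosen by an unadjusted p under 0.01 (1.61% of all genes), arrays that did not overlap and an unadjusted p under 0.05 without PBS replicate 3, which 99 genes met upward and 82 downward. Their arrays were thus bound not to overlap. Barx2, a homeobox transcription factor, had the largest upward difference after Egr1, with 9.98, 10.50 and 8.89 after Fgf7 and 8.86, 8.70 and 8.81 after PBS. Fgf7 replicate 3 lay close to the PBS arrays and the other Fgf7 arrays far above them. The log2 difference was 1.00 ± 0.33 (adjusted p = 0.574), between 0.65 and 1.45 when 1 array was left out, and a second, dimmer probe gave 0.37. Aspa, aspartoacylase, an enzyme that splits N-acetylaspartate, read 10.15, 9.84 and 9.91 against 8.89, 9.17 and 9.60. Its log2 difference was 0.75 ± 0.20 (adjusted p = 0.52) and 0.94 without PBS replicate 3, the highest of the PBS arrays, while a second probe near the dim level gave 0.05.

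Smaller upward differences were seen for genes of varied function. Ipo7, importin 7, a carrier of proteins into the nucleus, gave 7.96, 7.97 and 8.20 against 7.49, 7.54 and 7.59 (log2 difference 0.50). Fam83e, of a family that anchors casein kinase 1, gave 9.15, 9.36 and 9.45 against 8.79, 8.80 and 8.93 (0.48). Their adjusted p-values were 0.452 and 0.408. Tmem219, a membrane protein known as a receptor for Igfbp3, gave 8.98, 8.90 and 9.23 against 8.56, 8.56 and 8.57 (0.47, adjusted p = 0.408), so the PBS arrays were nearly equal and all Fgf7 arrays lay above them. Its second probe gave 0.20. The log2 differences of Fryl, Tha1 (threonine aldolase), Zfp445 (a zinc finger protein that maintains imprints), AI661453 and Nktr (a cyclophilin-domain protein) were 0.45 to 0.50. For Fryl, 4 other probes gave -0.02 to 0.08 where the chosen probe gave 0.50, so its difference rests on 1 probe.

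Downward, Lyz2, the lysozyme gene of macrophages and other myeloid cells, had the largest difference of the genes so chosen. It read 7.95, 8.38 and 8.49 after Fgf7 and 9.43, 9.59 and 9.24 after PBS, and the groups did not overlap. The log2 difference was -1.15 ± 0.34 (adjusted p = 0.536) and -1.24 without PBS replicate 3, and a second probe gave -0.63. The PBS mean of Lyz2 was 9.42 at 1 h, 8.72 at 5 h (8.02 to 9.31) and 8.63 at 20 h (8.12 to 9.18). The mean after Fgf7 at 1 h was 8.27. The part of the PBS arrays at 1 h in the Lyz2 difference was not tested. Cd9, a tetraspanin, read 7.88, 8.06 and 8.25 against 8.50, 8.70 and 8.71 (log2 difference -0.57 ± 0.19, adjusted p = 0.572). Tgfbr2, the type II receptor of TGF-beta, read 8.88, 8.98 and 9.14 against 9.29, 9.53 and 9.66 (-0.50 ± 0.16, adjusted p = 0.57). Cst3, cystatin C, an inhibitor of cathepsins that dendritic cells and macrophages express strongly, read 11.86, 12.01 and 12.20 against 12.35, 12.47 and 12.45 (-0.40 ± 0.10, adjusted p = 0.452). Rtn1, a reticulon of the endoplasmic reticulum, gave -0.52 with the probe used and -0.46 and -0.27 with its other probes above the dim level. Vcam1, an adhesion molecule that binds leukocytes, gave -0.40.

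Others of the downward genes act in metabolism or traffic. Etfdh, which passes electrons from fatty acid oxidation to ubiquinone, read 10.66, 10.78 and 10.47 against 11.10, 11.05 and 10.93 (log2 difference -0.39 ± 0.10, adjusted p = 0.452), but 2 other probes gave 0.23 and 0.03. Uap1, the enzyme that makes UDP-N-acetylglucosamine, read 10.87, 10.82 and 10.67 against 11.16, 11.43 and 10.93 (-0.39 ± 0.12, adjusted p = 0.536). Stard3nl, a protein of late endosomes, gave -0.40, Ptms, parathymosin, -0.41, Dennd5a, an activator of Rab proteins, -0.42 and the predicted gene Gm5643 -0.47. All 24 genes, Egr1 included, kept their direction in each of 18 alternative fits. Since they were chosen for arrays that do not overlap, leaving out an array could not reverse a direction. The other fits largely reuse the same arrays, so the kept directions add no support. Barx2 without Fgf7 replicate 2, Zfp445 without Fgf7 replicate 3 and Gm5643 without PBS replicate 2 reached an unadjusted p of 0.0744, 0.0523 and 0.0509.

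**Figure D3:**
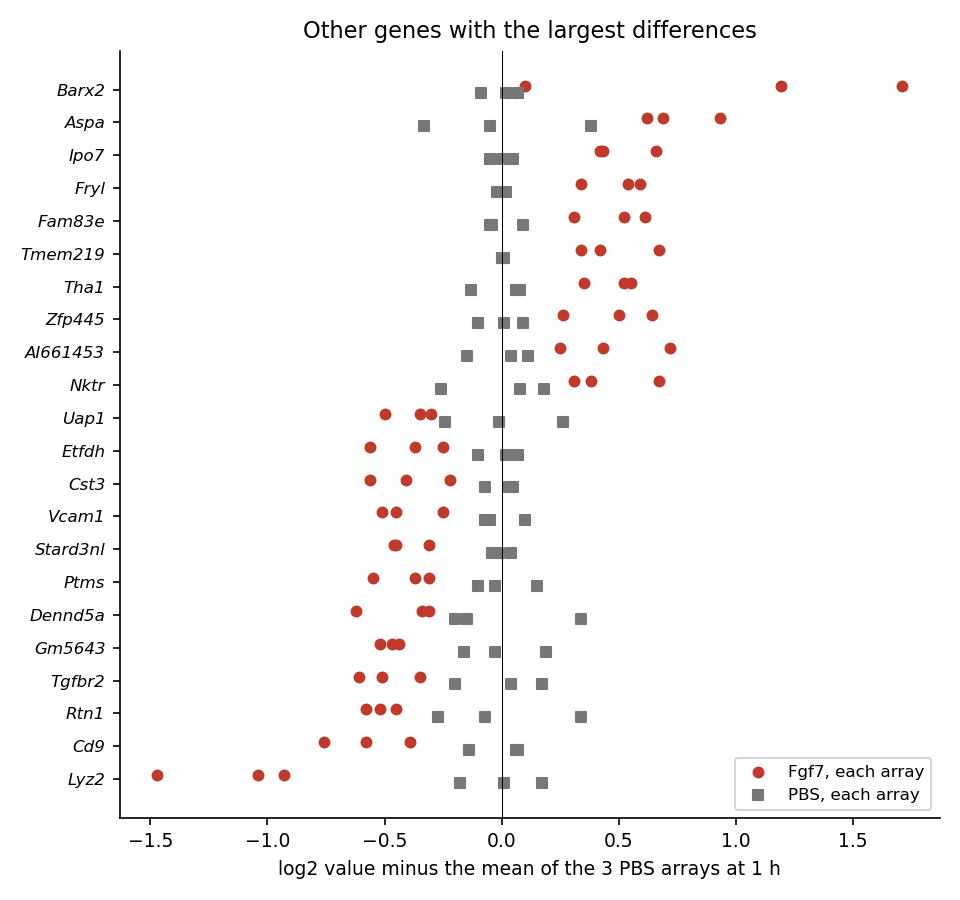
Log2 value of each Fgf7 array (circles) and PBS array (squares) at 1 h minus the mean of the 3 PBS arrays, for 22 of the genes other than Egr1 with the largest differences by the selection described. Barx2 has 1 Fgf7 array next to the PBS arrays, and Lyz2 has the widest gap on the lower side.

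Most of the large downward differences were small without PBS replicate 3. With all arrays, 12 genes were more than 2-fold lower after Fgf7 and 2 more than 2-fold higher, and without it 4 and 3. Acta2, smooth muscle actin, read 8.32, 9.55 and 10.01 after Fgf7 and 8.79, 10.55 and 13.18 after PBS, and its log2 difference went from -1.55 to -0.38 when PBS replicate 3 was left out. Actg2, a second actin of smooth muscle, went from -1.43 to -0.11, Myh11, its myosin heavy chain, from -1.42 to -0.32, and Des, desmin, from -1.38 to -0.23. All 16 smooth muscle markers tested lay below 0 with a median of -0.86. Without that array all 16 were still below 0, with a median of -0.11. All 19 fibroblast and matrix genes tested, such as the proteoglycan gene Dcn, were likewise below 0 in both fits (median -0.33, and -0.16 without that array). In neither list did a gene pass. The 4 genes more than 2-fold lower without PBS replicate 3 were Lyz2 and 3 genes of lymphoid tissue, Fcmr, Cd79b and Cxcl13. The 3 higher were Egr1, Barx2 and Erich5. Erich5, a gene of unstated role, read 10.86, 11.69 and 12.24 after Fgf7 and 10.39, 10.50 and 11.15 after PBS (1.15 without PBS replicate 3, adjusted p = 0.68).

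**Figure D4:**
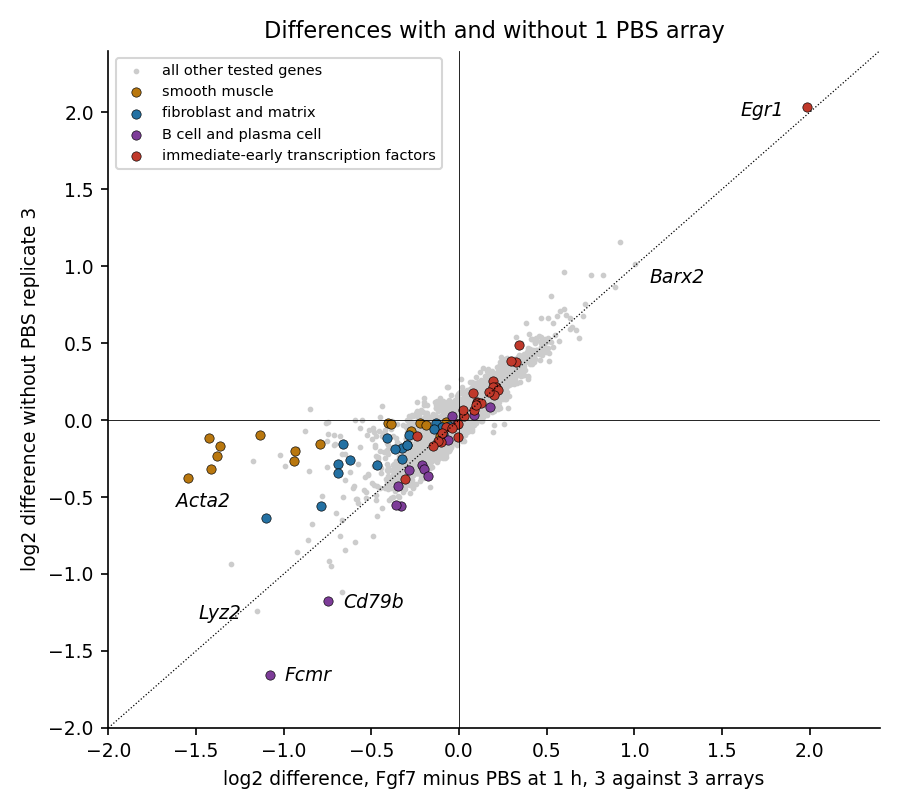
Log2 difference between Fgf7 and PBS at 1 h for 13201 genes, with 3 PBS arrays (horizontal) and without PBS replicate 3 (vertical), and 4 gene lists in colour. Egr1 lies at 1.99 and 2.03, on the dotted line of equality, while smooth muscle genes such as Acta2 lie far to the left of that line and near 0 on the vertical axis.

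For genes of B cells, PBS replicate 3 lay with the Fgf7 arrays. Fcmr, the IgM receptor of B cells, read 7.03, 7.03 and 7.66 after Fgf7 and 9.23, 8.57 and 7.15 after PBS, so PBS replicate 3 was low with the Fgf7 arrays. Cd79b, a subunit of the B cell receptor, read 7.51, 7.46 and 8.0 against 9.01, 8.66 and 7.54, with the same odd array. Cxcl13, the chemokine of B cell follicles, read 7.03, 7.10 and 7.61 against 8.58, 8.14 and 7.02. Without PBS replicate 3 the log2 differences of these genes were -1.66, -1.18 and -1.12 (adjusted p = 0.519, 0.427 and 0.519). Of 14 B cell and plasma cell genes tested 0 passed and 12 lay below 0, with a median of -0.20, and of -0.32 without that array. The mean centred signal of the list was 0.47, 0.33 and -0.05 in the PBS arrays and -0.03, -0.04 and 0.06 in the Fgf7 arrays, so 2 PBS arrays were high and 1 lay among the Fgf7 arrays. It was 0.27, -0.06 and -0.13 in the Ex-4 arrays of the same time. The part of B cell content in the differences of these genes was not tested.

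T cell genes lay mostly on the upper side. Of 16 tested 0 passed and 13 lay above 0, with a median of 0.18, and of 0.15 without PBS replicate 3. Prf1, perforin, the pore-forming protein of cytotoxic lymphocytes, read 9.58, 9.94 and 10.67 after Fgf7 and 9.15, 9.10 and 9.49 after PBS, without overlap (log2 difference 0.82 ± 0.31, adjusted p = 0.635). Gzmk, a granzyme, read 7.44, 7.33 and 7.28 against 7.09, 7.13 and 7.12, with every PBS array under the dim level. Its Fgf7 mean was 1.12-fold the dim level, a value given without an error. The 95% interval of its log2 difference ran from 0.08 to 0.39 (adjusted p = 0.536). Of the 3 below 0, Ltb, lymphotoxin beta, had an unadjusted p under 0.05, at 7.02, 7.24 and 7.19 against 7.68, 7.52 and 7.17 (-0.31 ± 0.10), a pattern like that of the B cell genes. Of 16 macrophage and dendritic cell genes 12 lay below 0 (median -0.18, and -0.10 without PBS replicate 3). Besides Lyz2, C1qc, a complement subunit made by macrophages, read 8.15, 8.68 and 8.95 against 9.0, 9.39 and 9.48 (-0.70 ± 0.31, adjusted p = 0.635). Siglech, a marker of plasmacytoid dendritic cells, read 7.77, 8.11 and 8.19 against 7.80, 7.49 and 7.66 (0.38 ± 0.15).

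Epithelial genes, the compartment that carries the receptor, gave small differences. Of 22 brush border genes tested 0 passed and 18 lay above 0, with a median of 0.09 in both fits. Slc6a19, a transporter of neutral amino acids, read 13.17, 12.92 and 12.94 after Fgf7 and 12.71, 12.57 and 12.77 after PBS (log2 difference 0.33 ± 0.12, adjusted p = 0.612). Slc5a1, the sodium-glucose transporter, gave 0.26 and Treh, trehalase, 0.22, each without overlap of the arrays. Of 12 goblet cell genes 9 lay above 0 (median 0.07), among them Muc2, the secreted mucin, at 14.42, 14.39 and 14.58 against 14.36, 14.16 and 14.20 (0.22 ± 0.08, unadjusted p = 0.00792, adjusted p = 0.612). Of 14 genes of the crypt 10 lay below 0 (median -0.13). Olfm4, a stem cell marker, read 9.48, 10.48 and 10.18 against 10.31, 11.50 and 11.10 (-0.92 ± 0.40), and in each same-numbered pair the Fgf7 array was the lower. Sox9, a transcription factor of crypt cells, read 10.41, 10.75 and 11.10 against 10.10, 10.41 and 10.45 (0.43 ± 0.16), so crypt genes did not share a direction. Neither of these passed.

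**Figure D5:**
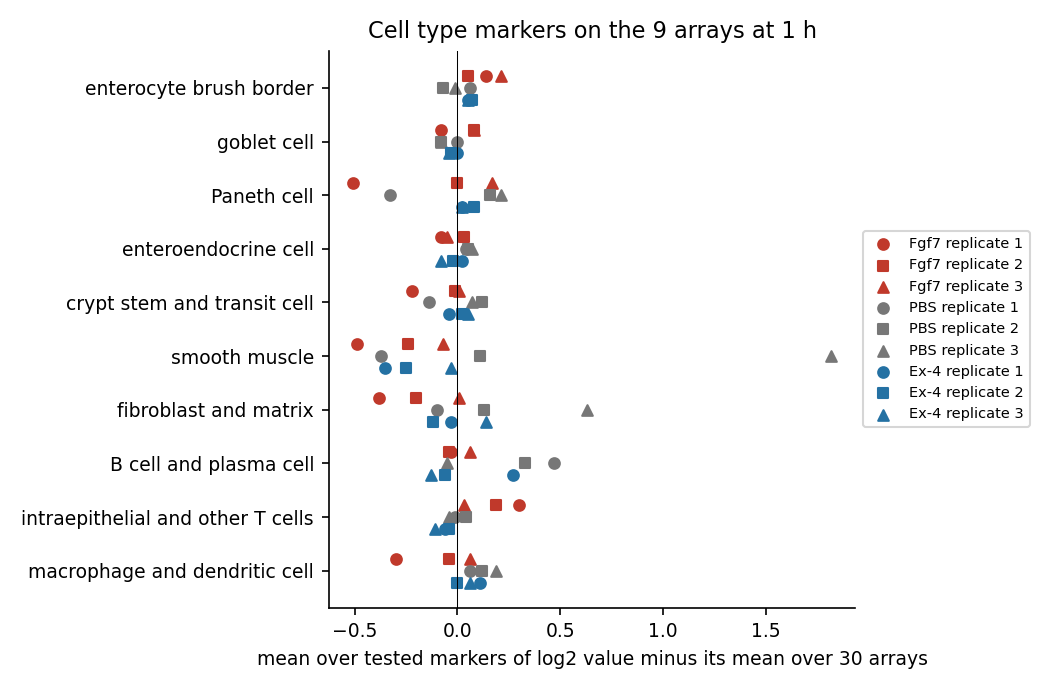
Mean over the tested markers of 10 cell types, each marker centred on its mean over 30 arrays, for the 9 arrays at 1 h. PBS replicate 3 stands apart at 1.82 for smooth muscle, and PBS replicates 1 and 2 stand above the other PBS and the Fgf7 arrays for B cells, at 0.47 and 0.33.

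Fgf7 was also compared directly with Ex-4 at 1 h, which uses no PBS array. Tmem219 was higher after Fgf7 and was the 1 of 13201 genes (0.00758%) that passed, where 759 had an unadjusted p under 0.05 (5.75%). It read 8.51, 8.26 and 8.27 after Ex-4, below all Fgf7 arrays, a log2 difference of 0.69 ± 0.10 (adjusted p = 0.00639). The PBS arrays at 1 h read 8.56 to 8.57, so Fgf7 lay above PBS and Ex-4 below it. At 5 h Ex-4 (8.27 to 8.53) also lay below PBS (8.67 to 8.93), and at 20 h these 2 groups overlapped. The call of Tmem219 was lost without Fgf7 replicate 3 (adjusted p = 0.0896), with only the Fgf7 and Ex-4 groups at 1 h in the fit (0.19) and with only the 9 arrays at 1 h (0.0523). Egr1 differed by 1.21 ± 0.24 and did not pass (unadjusted p = 2.67e-05, adjusted p = 0.117), though the 3 Fgf7 arrays lay above the 3 Ex-4 arrays. It passed with the replicate number as a block (adjusted p = 0.00822), with that block within each time (0.0231) and with array weights (0.0384). Cd27, a costimulatory receptor of lymphocytes, had the second smallest p, with a log2 difference of 0.46 ± 0.08 (adjusted p = 0.068). Against PBS, Egr1 differed by 0.78 ± 0.24 after Ex-4 (unadjusted p = 0.00283, adjusted p = 1.0) beside 1.99 ± 0.24 after Fgf7, both read against the same 3 PBS arrays.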

How the data were processed

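RNA from jejunal mucosa was hybridised to Illumina mouse arrays of 45281 probes, labelled with the TotalPrep-96 kit per the labels' protocols. The deposited values are log2 signals from the authors. No label or header names their normalization, but ranked values of the arrays coincide (largest SD of a rank 0.00218, on the log2 scale). Background does not appear to have been subtracted, since the most frequent signal was 7.015, so a fold understates the change of dim genes. Another table of 60 columns headed by bare numbers could not be tied to samples and was not used.

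Of the probes, 34885 had 1 gene symbol, 18 several and 10378 none, and 34807 matched a RefSeq gene ID. Probes above the dim level of 7.18 (a level exceeded by a share of 0.01 of unlit probes) in at least 3 arrays were kept, 26637 in all. The probe with the highest mean stood for each gene. Of 19057 genes 13201 were tested. limma 3.58.1 (R 4.3.3) fitted 9 group means over 30 arrays without a block, with Benjamini-Hochberg adjustment and a threshold of 0.05. Summaries used Python 3.11.15 with pandas 2.3.3, and figures matplotlib 3.10.9. In 5 simulated sets for Fgf7 against PBS at 1 h (13201 genes), 86.0% of 1.5-fold and 98.8% of 2-fold rises were recovered, with 6 to 13 false calls. Many genes were changed at once there, with independent normal noise, which makes a call easier than where few genes change. These shares thus do not tell how often a real change would pass. In the real fit Barx2, at a log2 difference of 1.0, had an adjusted p of 0.574 in limma's test.

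Same-numbered Fgf7 and PBS arrays at 1 h deviated from their group means together (correlations 0.257, 0.143 and 0.187), as at 20 h (0.215, 0.218 and 0.612). Pairs of unlike number reached 0.0548 at 1 h, but 0.284 at 20 h (Fgf7 replicate 2 with PBS replicate 1). The numbers may thus pair the samples at 1 h, which no label states. The fit reported has no block and ignores such a pairing, and fits with a block by replicate number are given as alternatives. At 5 h 1 pair fell short (0.0854), as did 1 pair of Fgf7 with Ex-4 at 1 h (0.0658). Replicate 2 of Fgf7 and of Ex-4 deviated in opposite ways at 5 h (-0.171) and at 20 h (-0.183).

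Named were every gene that passed, the 12 genes per direction with the largest fold under the selection given in the text, Fgf pathway and immediate-early members with an unadjusted p under 0.05 beside a fixed set of them, and up to 4 members of each other list, except 1 gene that is not reported here. The comparison and the lists were chosen with earlier results of these data known. Alternatives left out single Fgf7 or PBS arrays at 1 h, or the 4 arrays richest in smooth muscle transcripts. Others changed the arrays fitted, block, covariate, weights, variance model, filter, probe choice and background.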

Additional observations from a re-analysis of the deposited data

Results flagged for a closer look

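For 3 genes the Fgf7 effect at 1 h differed from that at 20 h by a test of the difference itself. Mboat1, an acyltransferase of lysophospholipids, read 7.27, 7.53 and 7.41 after Fgf7 and 7.33, 7.25 and 7.39 after PBS at 1 h, with overlap, and 8.22, 8.56 and 8.28 against 7.37, 7.32 and 7.47 at 20 h, without it. Its Fgf7 effect was 0.08 at 1 h, 0.69 at 5 h and 0.96 at 20 h, and the difference of the 1 h from the 20 h effect was -0.88 ± 0.13 (limma, adjusted p = 0.00798).

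Anxa3, an annexin, read 8.51, 8.65 and 8.38 after Fgf7 and 8.61, 8.70 and 8.63 after PBS at 1 h, and 9.59, 9.55 and 9.53 against 8.86, 8.42 and 8.37 at 20 h. Its effect was -0.13 at 1 h, 0.75 at 5 h and 1.01 at 20 h, and the difference was -1.14 ± 0.19 (adjusted p = 0.0176). Egr1 ran the other way, with a difference of 1.94 ± 0.33 (adjusted p = 0.0189). Against the 5 h effect, Mboat1 differed by -0.61 and Anxa3 by -0.88 and neither passed (adjusted p = 0.161 for each).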

How the results depend on the processing

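The rise of Egr1 at 1 h passed under all 18 alternatives, with log2 differences of 1.82 to 2.27. In Fgf7 against PBS, 1 gene passed whichever array was left out. Without the 4 arrays richest in smooth muscle transcripts 2 passed, Egr1 and Fcrla, a B cell gene named after its values were seen (-0.75, adjusted p = 0.0385). With the replicate number as a block 1 passed, and with that block within each time, an alternative added after seeing the data, 2. Genes with an unadjusted p under 0.05 numbered 756 to 1047 without single arrays and 1675 over all probes, where more features were tested. In Fgf7 against Ex-4, 1 gene passed without single Fgf7 or PBS arrays at 1 h (Cd27 in place of Tmem219 without Fgf7 replicate 3). No Ex-4 array at 1 h was left out, so dependence on single Ex-4 arrays was not examined. With only the groups compared 1 passed (Hbegf in place of Tmem219). With only the 9 arrays at 1 h 2 passed (Ccl4 and Hbegf, without Tmem219). The count was 2 with trended variances and 3 with the replicate block. It was 4 with the block within each time, array weights or background subtraction. For the 1 h against the 5 h effect, 0 passed without single 1 h arrays and 3 with the block within each time. The count was 1 with only the groups compared, with the replicate block, with the smooth muscle covariate or after background subtraction. For the 1 h against the 20 h effect, 1 to 3 passed without single 1 h arrays, 1 without the 4 arrays, 6 with the replicate block, 5 with it within each time and 6 over all probes. There Anxa3 lost its call without Fgf7 replicate 3 (adjusted p = 0.113), PBS replicate 1 (0.0512) or PBS replicate 2 (0.0882), and Mboat1 without the 4 arrays (0.0753), with only the groups compared (0.0661) or after background subtraction (0.126). No gene that passed changed direction. Genes near 0 changed sign when single arrays were left out, namely Junb (-0.11 to 0.14), Dusp6 (-0.02 to 0.27), Fgfr3 (-0.07 to 0.04), Ier3 (-0.10 to 0.04), Ier2 (-0.03 to 0.08), Egr3 and Spry2 (-0.03 to 0.03 each) and Pate4 (-0.01 to 0.04). The cause of these shifts was not tested. Hbegf and Ccl4 were named here after their values were seen. With 3 arrays per group, small changes of genes near the dim level were not detectable.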

Other observations

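Other pathways were given no test of their own. Among 14 targets of FoxO factors, which growth factor signalling is known to hold out of the nucleus, 0 passed, 8 lay below 0 (median -0.04) and 4 had an unadjusted p under 0.05, each lower, beside 3.92% of all genes. Cited2, a transcriptional coregulator, read 11.20, 11.29 and 11.13 after Fgf7 and 11.85, 11.44 and 11.33 after PBS, without overlap (log2 difference -0.33 ± 0.13, adjusted p = 0.635). Gabarapl1, an autophagy protein, read 8.23, 8.17 and 8.59 against 8.81, 8.79 and 8.99 (-0.53 ± 0.21, adjusted p = 0.635). Without PBS replicate 3, 1 of the 14 had an unadjusted p under 0.05.

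Of 21 inflammatory genes of the NF-kB group 0 passed. Icam1, an adhesion molecule for leukocytes, had the lowest p of them, with 7.56, 7.59 and 7.47 against 7.82, 7.99 and 7.74 (-0.31 ± 0.08, adjusted p = 0.52). Of 20 genes of the heat shock and unfolded protein responses 10 lay above 0. Herpud1, a protein of endoplasmic reticulum quality control, read 13.81, 13.61 and 13.53 against 13.12, 13.35 and 13.23 (0.42 ± 0.17, adjusted p = 0.635). Growth programmes showed no common direction at 1 h. Of 17 ribosome biogenesis genes 11 lay above 0 (median 0.07), with Mybbp1a at 0.28 and Nop56 at -0.34, and of 27 replication genes 10 (median -0.04).

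Of 18 enteroendocrine genes 0 passed and 11 lay below 0. Gcg, which encodes proglucagon, read 10.16, 10.51 and 10.30 against 10.64, 10.72 and 10.74, without overlap (-0.38 ± 0.17, adjusted p = 0.635). Cpe, a carboxypeptidase of prohormones, read 8.47, 8.51 and 8.41 against 8.62, 8.61 and 10.29, so its difference of -0.71 became -0.15 without PBS replicate 3.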
